A study of Mus musculus with 127 samples.

Results

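A set of 9 genes of cellular iron traffic is described here in single red cell precursors of mouse marrow. They are the transferrin receptors Tfrc and Tfr2, the reductase Steap3, the iron transporter Slc11a2, the ferritin chains Fth1 and Ftl1, the iron sensors Aco1 and Ireb2, and the exporter Slc40a1. They were taken by symbol from an expression table of 24320 gene symbols, with the transcript row of highest mean used for each, and all 9 were found. The samples were individual cells from the marrow of C57BL/6J mice and carried the label erythroblast: 48 came from Flvcr-deleted mice, 48 from wild-type mice and 31 from wild-type mice given EPO (erythropoietin, the hormone of red cell production). Flvcr is a heme exporter of the cell surface, and the study's design set its loss beside normal and stimulated erythropoiesis. The allele and the way of deletion, the dose and time of EPO, and the ages of the mice are not stated in the labels. Each cell also carried a class letter, A to D, which within a group largely followed its fluorescence for Ter119, an antigen of maturing red cells. A letter did not cover the same normalized Ter119 values in each group: EPO-treated class B had a median of 0.0988, against 0.452 in wild-type class B and 0.381 in class B of the Flvcr-deleted group, and the class D medians were 0.556, 0.823 and 0.849. Cells of the same letter are compared across groups below, and whether they were at the same stage was not tested.

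Erythroblasts take up iron bound to transferrin through Tfrc, reduce it in the endosome with Steap3 and move it to the cytosol through Slc11a2. Most of it enters heme, the spare part is stored in ferritin shells made of Fth1 and Ftl1 chains, and Slc40a1 (ferroportin) lets iron out. When iron is scarce, Aco1 (iron regulatory protein 1) and Ireb2 (iron regulatory protein 2) bind hairpins called iron-responsive elements: in a 5′ UTR they block translation, and in the 3′ UTR of Tfrc they protect the message from decay. Transcript levels therefore show only part of this control.

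Labels name no animal, so a group is 1 sample with many cells. There is accordingly no p-value in what follows, each SD runs over cells, and no group difference has a replicate check. The column names hold a code that was read here as the capture chip. Flvcr-deleted cells had 1 code, wild-type cells another, and EPO-treated cells another pair, one of which held 4 cells. Group and chip therefore cannot be told apart. The 4 cells of the smaller EPO-treated chip, of classes A, B and C, had normalized Ter119 of 2.64e-05 to 0.00263. All other EPO-treated cells had 0.00605 or more. Whether Ter119 values were on the same scale across chips and groups was not tested. Comparisons use classes B to D, which hold 30 Flvcr-deleted cells, 42 wild-type ones and 24 EPO-treated ones, because class A was mixed. There, 3 or more of 15 markers of granulocytes and monocytes were present in 4 of 6 cells of the wild-type group, 3 of 7 of the EPO-treated group and 1 of 18 of the Flvcr-deleted group. In classes B to D every cell had at least 3 erythroid markers, and none had 3 granulocyte, macrophage, lymphocyte or megakaryocyte markers. The median number of detected genes (RPKM of at least 1) there was 1196.5 in the Flvcr-deleted, 2199 in the wild-type and 1385 in the EPO-treated group. Values of the groups are given in this order below. The transcript of Flvcr itself (listed as Mfsd7b) was detected in 1 of 48 wild-type cells, 0 of 31 EPO-treated cells and 0 of 48 Flvcr-deleted cells (which allows up to 7.40%, exact 95% interval), too rarely to check the genotype.

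The iron-responsive elements of the members are shown because they set apart the transcripts that hold this hairpin form. GENCODE vM21 transcripts matched to the members by RefSeq identifier were searched on the transcript strand for a C, 5 bases, the loop CAGTGN and 5 bases that pair with the first 5. This form was present in 0.961% of 58797 protein-coding transcripts. Each site is written 5′ to 3′ as 30 bases of DNA letters with the loop in capitals, and its GRCm38 position is given, whereas the reads had been aligned to mm9.
Fth1, 5′ UTR, chr19:9982732-9982761, plus strand: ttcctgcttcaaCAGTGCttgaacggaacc
Ftl1, 5′ UTR, chr7:45459778-45459807, minus strand: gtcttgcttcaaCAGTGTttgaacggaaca
Slc40a1, 5′ UTR, chr1:45925464-45925493, minus strand: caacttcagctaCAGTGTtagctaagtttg
Tfrc, 3′ UTR, chr16:32631219-32631248, plus strand: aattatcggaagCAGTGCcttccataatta
Tfrc, 3′ UTR, chr16:32631598-32631627, plus strand: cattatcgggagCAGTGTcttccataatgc
Tfrc, 3′ UTR, chr16:32631663-32631692, plus strand: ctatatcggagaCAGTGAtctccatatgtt
Tfrc, 3′ UTR, chr16:32631710-32631739, plus strand: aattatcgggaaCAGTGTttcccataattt
Slc11a2, 3′ UTR of NM_001146161, chr15:100395152-100395181, minus strand: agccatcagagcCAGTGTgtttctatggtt
Fth1, Ftl1 and Slc40a1 had 1 match each ahead of the coding sequence, and Tfrc had 4 behind it. A match describes these letters and is not a measured binding site. The Slc11a2 match was found only when 1 unpaired base was allowed in the 3′ arm, a form held by 2.94% of the transcripts together with the strict one and added after the strict form had found none. The other Slc11a2 transcript, NM_008732, and the transcripts of Tfr2, Steap3, Aco1 and Ireb2 held neither form.

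Ferritin transcripts were among the most abundant messages of these cells, and the transferrin receptor stood well above the other members. Levels are RPKM, which are scaled to transcript length and library size, and means and SDs are on the log2(RPKM + 1) scale. Among the 2540 genes with a mean log2 level of at least 1 over all cells (called kept genes below), Fth1 ranked 11, 10 and 8 over classes B to D. Ftl1 ranked 12, 16 and 15, and Tfrc ranked 139, 91 and 41. Slc11a2, the only other kept member, ranked 2023, 1357 and 1661. The other 5 members were below the filter, and their mean log2 levels ran from 0.11 to 2.08. Neighbours in the order below Tfrc differed by less than their SDs over cells in each group.

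The heavy chain Fth1 (NM_010239), which oxidizes iron for storage, was detected in every cell of classes B to D. Its RPKM ran from 631 through a median of 1982.5 to 5283 in the Flvcr-deleted group, from 704 through 2454.5 to 4110 in the wild-type group and from 204 through 2068 to 6604 in the EPO-treated group. The groups overlapped over most of their ranges. Group differences were taken within each letter and averaged over B, C and D with equal weight. Fth1 differed by -0.26 between Flvcr-deleted and wild-type cells (-0.34, -0.45 and 0.00 in B, C and D), less than the SDs of 0.85 and 0.53 over cells. The median kept gene differed by -1.08 in the same comparison, and Fth1 stood at percentile 77.2 of the kept genes. With every cell scaled to 1 sum of RPKM the Fth1 difference was -1.10 and that of the median gene -1.32. The sums of RPKM had medians of 1553570, 692254 and 656710. Between EPO-treated and wild-type cells Fth1 differed by -0.58, where the median gene differed by -0.99.

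The light chain Ftl1 (NM_010240), which helps to form the iron core, differed little between Flvcr-deleted and wild-type cells and was lower on average in EPO-treated cells. Its RPKM ran from 432 through 1742 to 3410 in Flvcr-deleted cells and from 483 through 1393 to 3040 in wild-type cells. In EPO-treated cells it ran from 0 through 1152 to 4623. The upper ends of the 3 groups overlapped, and the low values were all in EPO-treated cells. Ftl1 differed by 0.33 between Flvcr-deleted and wild-type cells, at percentile 89.0 of the kept genes and within the SDs of 0.83 and 0.63. This sign turned with every cell scaled to 1 sum of RPKM (-0.51), with globins left out of that sum (-0.12) and with class A included (-0.76, or 0.36 without the class A cells of suffix d). Between EPO-treated and wild-type cells Ftl1 differed by -1.24 (-1.02, -1.77 and -0.92 in B, C and D), and between Flvcr-deleted and EPO-treated cells by 1.56.

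The size of those Ftl1 differences depended on a few EPO-treated cells, and further EPO-treated cells were low too. Class B cell 23 had 0.30 RPKM of Ftl1 beside 522 of Fth1, class C cell 26 had 0 beside 1266, and class D cell 14 had 59.1 beside 2656. In the other 3 class D cells Ftl1 was at 1812, 1296 and 1681 RPKM, against 678 to 2175 in wild-type class D. Class B cell 12 and class C cells 22, 24 and 25 had 195, 271, 411 and 157 RPKM. These were also below 483, the lowest wild-type value of classes B to D. Median Ftl1 of EPO-treated and wild-type cells was 1310 and 1223 RPKM in class B, 621 and 1406 in C, and 1489 and 1395 in D. Without cells 23 and 26 the difference from wild-type was -0.58 and that of Flvcr-deleted from EPO-treated cells was 0.91. Without cell 14, cell 23 or cell 26 alone the difference from wild-type was -0.84, -0.94 or -0.88. With medians in place of means it was -0.33. An Ftl1 value under 1 with Fth1 at 100 or more was also found in 2 class A cells, Flvcr-deleted cell 28 and EPO-treated cell 20. The EPO-treated columns were deposited in another format, with all values above 0 held to 2 decimals, and its part in these values was not tested. Ferritin genes have processed copies in the genome, and no source used here says how reads with several matches were counted.

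The 2 chains were set beside each other in the same cell. The log2 level of Ftl1 minus that of Fth1 had medians of -0.61, -1.01 and -1.28. Ftl1 lay below Fth1 in 21 of 30, 37 of 42 and 20 of 24 cells. The mean of this quantity was -0.37 ± 0.92 (SD, n = 30 cells), -0.92 ± 0.70 (n = 42) and -1.74 ± 2.84 (n = 24). The EPO-treated mean and SD include the cells with Ftl1 near 0, the lowest at -10.31. Summed over both chains, ferritin RPKM had medians of 3908, 3950 and 2921, with ranges of 1115 to 6919, 2015 to 6597 and 361 to 8701. The order of the groups depended on the scale. As a share of the RPKM sum without globins, ferritin had medians of 0.743%, 1.12% and 0.971%, lowest in Flvcr-deleted cells, and the ranges overlapped.

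**Figure D1:**
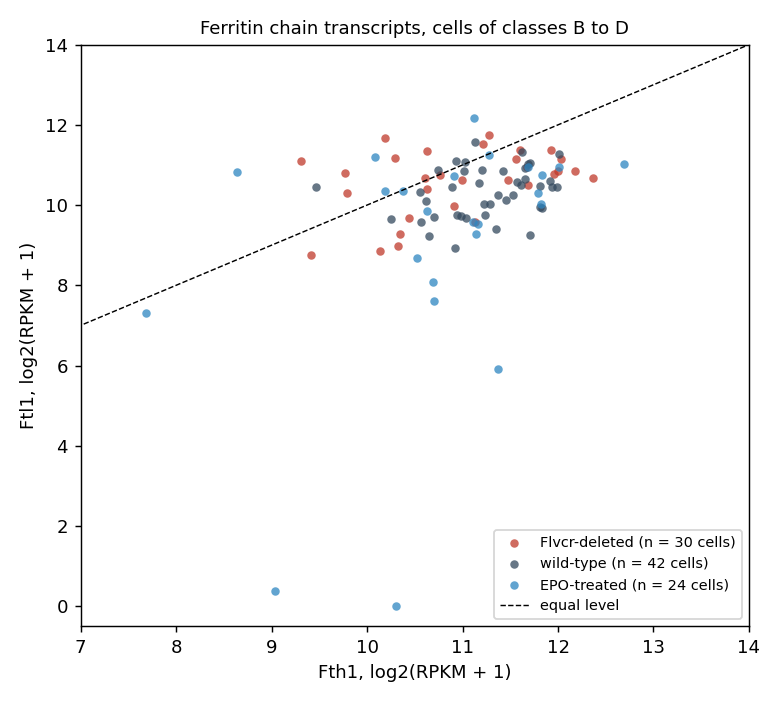
Ftl1 level against Fth1 level, both as log2(RPKM + 1), with 1 point per cell of classes B to D coloured by group and a dashed line of equal level. Most cells lie below the line, and the EPO-treated cells with Ftl1 at 0 and 0.30 RPKM lie at the foot of the plot.

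Tfrc (NM_011638), the receptor that brings transferrin iron into erythroblasts, was lower in Flvcr-deleted than in wild-type cells of classes B and C and level with them in class D. Over classes B to D its RPKM ran from 0 through a median of 109 to 735 in Flvcr-deleted cells. It ran from 19.4 through 201 to 727 in wild-type cells and from 0 through 154 to 3298 in EPO-treated cells. It was detected in 28 of 30, 42 of 42 and 22 of 24 cells, and the ranges overlapped. In class B the Flvcr-deleted mean was 5.64 ± 2.79 (SD, n = 16 cells) against a wild-type mean of 7.34 ± 1.27 (n = 10). In class C the means were 5.82 ± 2.50 (n = 9) and 7.68 ± 1.12 (n = 19). The 5 Flvcr-deleted class D cells had 735, 397, 132, 107 and 151 RPKM, all inside the wild-type class D range of 63.7 to 727. The differences in B, C and D were -1.70, -1.86 and 0.06, with an average of -1.17 that lay at percentile 46.6 of the kept genes. In cells with 1000 to 2000 detected genes (12 Flvcr-deleted and 18 wild-type), where the median gene differed by -0.09, Tfrc differed by -0.43.

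In EPO-treated cells Tfrc was highest in class D too. Its class means were 6.62 ± 2.64 (SD, n = 11 cells) in B, 6.45 ± 3.53 (n = 9) in C and 8.96 ± 1.07 (n = 4) in D. The 4 class D cells had 185, 813, 953 and 425 RPKM, 2 of them above every wild-type class D cell. The differences from wild-type were -0.73, -1.23 and 1.18 in B, C and D, and their average was -0.26. Class D minus class B of Tfrc was 2.20, 0.44 and 2.34 in the groups, while the median kept gene moved by -0.43, -0.90 and -1.36. Class D of these groups held 5, 13 and 4 cells, and whether these values differ between groups was not tested. The highest Tfrc value of classes B to D, 3298 RPKM, was in EPO-treated class C cell 26, the cell with Ftl1 at 0.

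Slc11a2 (NM_008732), the endosomal iron transporter also called DMT1, was detected in a smaller share of Flvcr-deleted than of wild-type cells. It reached 1 RPKM in 6 of 30 Flvcr-deleted cells, or 20.0% with an exact 95% interval of 7.71% to 38.6%, in 22 of 42 wild-type cells (52.4%, 36.4% to 68.0%) and 7 of 24 EPO-treated cells (29.2%, 12.6% to 51.1%). These binomial intervals cover counting error only, and the first 2 overlap slightly. Its highest values were 158, 141 and 261 RPKM. The difference between Flvcr-deleted and wild-type cells was -1.78 (-1.45, -1.71 and -2.17 in B, C and D), at percentile 27.1 of the kept genes. Between EPO-treated and wild-type cells the differences were -1.03, 0.11 and -2.98, and all 4 EPO-treated class D cells were at 0.

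The Slc11a2 rows could not separate the transcript with an iron-responsive element from the one without. Both rows were above 0 in each of the 36 Flvcr-deleted and wild-type cells with a value. The NM_008732 value was never less than 1.44 times that of NM_001146161: it was at that lowest ratio, within 0.1%, in 11 cells and above it in 25. Among EPO-treated cells 1 had only NM_008732 above 0, and no cell had only NM_001146161.

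Steap3 (NM_133186), which reduces iron in the endosome, was detected in 3 of 30 Flvcr-deleted (10.0%, exact 95% interval 2.11% to 26.5%), 13 of 42 wild-type (31.0%, 17.6% to 47.1%) and 3 of 24 EPO-treated cells (12.5%, 2.66% to 32.4%). The differences from wild-type were -1.33 and -1.07, where those of the median kept gene were -1.08 and -0.99. In Flvcr-deleted cells it was listed at 0 throughout classes C and D. Tfr2 (NM_001289511), the second transferrin receptor, which acts as an iron sensor and partner of the EPO receptor, was detected in 9 of 30 (30.0%, 14.7% to 49.4%), 8 of 42 (19.0%, 8.60% to 34.1%) and 4 of 24 cells (16.7%, 4.74% to 37.4%). Its differences from wild-type were 0.10 in Flvcr-deleted and -0.29 in EPO-treated cells, and these intervals overlap broadly. All 3 Flvcr-deleted detections of Steap3 and 4 of the 9 of Tfr2 were in 4 class B cells (7, 13, 16 and 40) with low beta-globin and more than 2000 detected genes. In the other 26 cells Steap3 was detected in 0 (which allows up to 13.2%, exact 95% interval) and Tfr2 in 5 (19.2%, 6.55% to 39.4%). The 4 Tfr2 rows had nearly the same means, so the isoforms are not compared.

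The iron sensors were seen in few cells. Ireb2 (NM_022655) was detected in 4 of 30 Flvcr-deleted (13.3%, exact 95% interval 3.76% to 30.7%), 15 of 42 wild-type (35.7%, 21.6% to 52.0%) and 3 of 24 EPO-treated cells (12.5%, 2.66% to 32.4%). Aco1 (NM_007386), which is an aconitase when it holds an iron-sulfur cluster, was detected in 2 of 30 (6.67%, 0.818% to 22.1%), 8 of 42 (19.0%, 8.60% to 34.1%) and 4 of 24 cells (16.7%, 4.74% to 37.4%). Flvcr-deleted minus wild-type was -0.58 for Ireb2 and -0.74 for Aco1, and EPO-treated minus wild-type was -0.76 and -0.32. Each is within the SD over wild-type cells, 1.70 for Ireb2 and 2.03 for Aco1. So are the Flvcr-deleted minus wild-type differences of Slc11a2 (SD 2.59), Steap3 (2.27) and Slc40a1 (2.40), so this SD does not set the members apart. The median kept gene differed by -1.08 between Flvcr-deleted and wild-type cells and by -0.99 between EPO-treated and wild-type cells. Both Flvcr-deleted detections of Aco1 and 2 of the 4 of Ireb2 were in the low beta-globin cells, and the other 26 cells held 0 and 2.

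Ferroportin, Slc40a1 (NM_016917), reached 1 RPKM in a single Flvcr-deleted cell of classes B to D. That made 1 of 30 (3.33%, exact 95% interval 0.0844% to 17.2%), class B cell 18 at 9.94 RPKM, and 3 other class B cells, numbered 16, 32 and 40, had 0.53, 0.11 and 0.80 RPKM. In wild-type cells it was detected in 19 of 42 (45.2%, 29.8% to 61.3%), up to 105 RPKM, and in EPO-treated cells in 5 of 24 (20.8%, 7.13% to 42.2%), up to 124 RPKM. The Flvcr-deleted and wild-type intervals do not overlap, and the EPO-treated one overlaps both. They cover counting error over cells only, and the share of all genes with such a gap was not counted. The number of detected genes differed too, with medians of 1196.5 in Flvcr-deleted and 2199 in wild-type cells. Flvcr-deleted minus wild-type was -1.98 (-2.54, -1.85 and -1.55 in B, C and D), and EPO-treated minus wild-type was -1.27. In cells with 1000 to 2000 detected genes the transcript was detected in 1 of 12 Flvcr-deleted (8.33%, 0.211% to 38.5%), 6 of 18 wild-type (33.3%, 13.3% to 59.0%) and 1 of 12 EPO-treated cells, and the intervals overlap there. These cells were pooled over unlike mixes of letters. Classes B, C and D gave 4, 4 and 4 Flvcr-deleted, 2, 8 and 8 wild-type and 5, 5 and 2 EPO-treated cells.

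**Figure D2:**
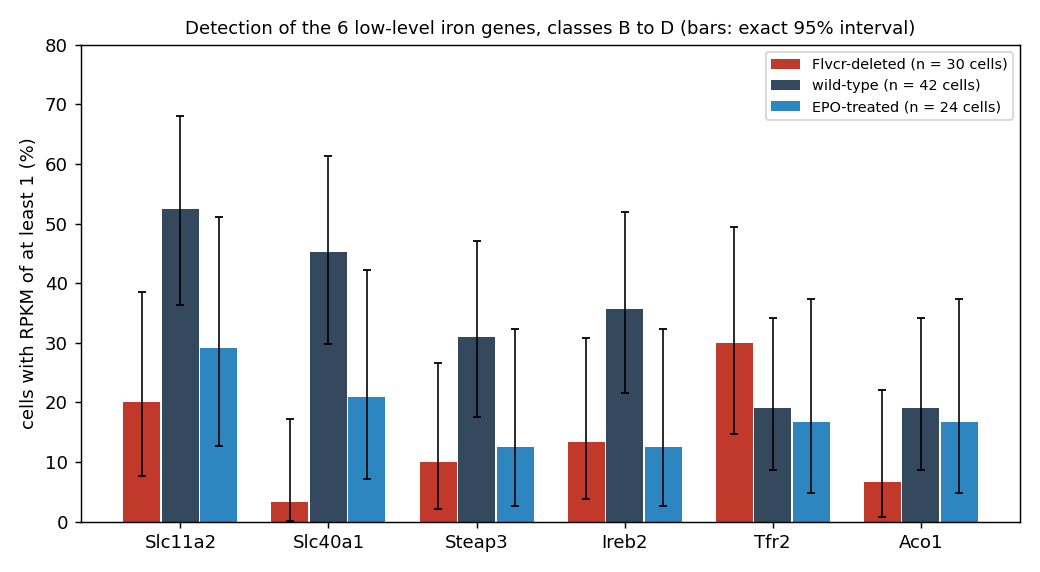
Percentage of cells of classes B to D with at least 1 RPKM of each of 6 low-level members, by group, with exact 95% binomial intervals. The wild-type bar is the tallest for 5 of the 6 genes, and the share of all genes with the tallest bar in wild-type cells was not counted. Wild-type cells also had more detected genes (median 2199, against 1196.5 in Flvcr-deleted and 1385 in EPO-treated cells). The intervals cover counting error over cells only.

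Detection of these 6 genes was set beside the number of genes detected in the cell. None of the 6 was detected in 17 of 30 Flvcr-deleted, 3 of 42 wild-type and 10 of 24 EPO-treated cells. The number of the 6 detected in a cell had a Spearman's rho with the detected genes of 0.71, 0.62 and 0.32 over these cells, a description within each group of values that share a library. Among cells with 1000 to 2000 detected genes none of the 6 was found in 8 of 12, 2 of 18 and 6 of 12, and the rho was 0.50, 0.36 and -0.39, the last with the other sign. Within that range the groups still differed in this number, with medians of 1278, 1565.5 and 1385 detected genes. Read depth is unknown. The part of either in the lower detection of Slc40a1, Slc11a2, Steap3 and Ireb2 was not tested further.

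Over the whole set, few kept members met the rule used for all genes: a difference of at least 1 in size with the same sign in classes B, C and D. Between Flvcr-deleted and wild-type cells 1 of the 4 kept members was lower (Slc11a2) and 0 were higher, where 48.3% of the 2540 kept genes were lower and 3.74% higher. The median over the 4 was -0.71. Between EPO-treated and wild-type cells 1 of 4 was lower (Ftl1) and 0 higher, against 42.0% and 0.512% of kept genes, with a median of -0.91. Between Flvcr-deleted and EPO-treated cells 0 of 4 were lower and 1 was higher (Ftl1), against 8.86% and 7.76%. These counts show no excess of lower members over the background. The comparisons share wild-type or other cells pairwise and are not independent.

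**Figure D3:**
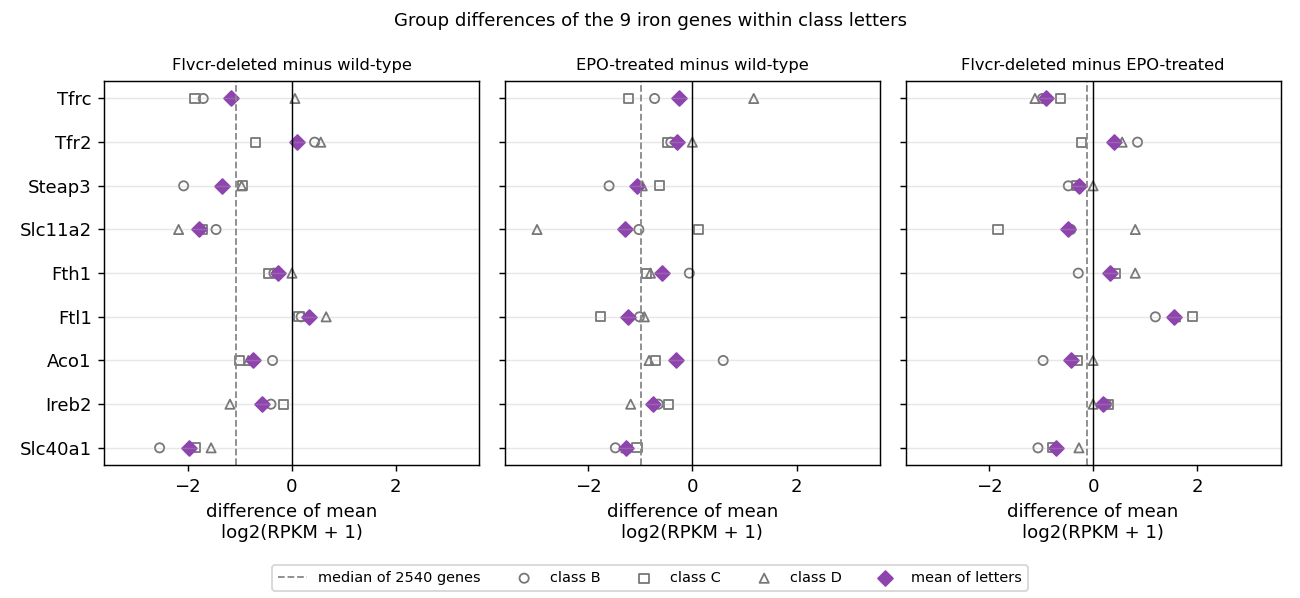
Differences of mean log2(RPKM + 1) for the 9 members (rows) in the 3 group comparisons (panels). Open symbols are classes B, C and D, filled diamonds are their mean, and the dashed line is the median of the 2540 kept genes; Fth1 and Ftl1 lie right of that line for Flvcr-deleted minus wild-type cells.

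Genes that work beside the members were described by their counts in the same way. The table held 29 other iron handling genes, of which 9 were kept, and between Flvcr-deleted and wild-type cells 6 of them were lower and 0 higher, where 48.3% of all kept genes were lower. The median over the 9 was -1.34, against -1.08 for all kept genes. The largest differences were in Vps35 (-3.13) and Snx3 (-2.70), which return the transferrin receptor from endosomes to the surface. Ncoa4, the receptor that sends ferritin to the lysosome, differed by -1.44. Exoc6 and Picalm, which act in receptor recycling and uptake, differed by -1.34 and -1.23. Between EPO-treated and wild-type cells 5 were lower and 0 higher, against 42.0% lower among all kept genes; they were the same genes without Picalm, with Snx3 at -2.58, Vps35 at -2.45, Ncoa4 at -1.67 and Exoc6 at -1.43. Between Flvcr-deleted and EPO-treated cells 0 were lower and 0 higher, against 8.86% and 7.76%.

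Alas2, the first enzyme of erythroid heme synthesis, held a strict match of the iron-responsive element in its 5′ UTR, as the ferritins did. It differed by -2.23 between Flvcr-deleted and wild-type cells (percentile 15.9 of the kept genes) and by -1.49 between EPO-treated and wild-type cells (29.2). Its RPKM ran from 0 through a median of 264 to 1790 in the first group, from 20.5 through 1120 to 4941 in the second and from 0 through 379 to 2171 in the third. The transcripts with a match in the 5′ UTR did not differ alike: Fth1 and Ftl1 lay above the median gene in Flvcr-deleted cells, and Alas2 and Slc40a1 lay below it. Flvcr-deleted class B included the 4 cells numbered 7, 13, 16 and 40, each with more than 2000 detected genes and with Hbb-b1 (beta-globin) under a log2 level of 12. Their Fth1 values of 3013, 1562, 3290 and 1251 RPKM and Ftl1 values of 2256, 1647, 1447 and 2290 lay within the range of the group. Without these cells Ftl1 differed from wild-type by 0.29 and Tfrc by -1.18.

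The kept genes most like each kept member were found by Pearson's r over the 12 group-by-letter means, class A included. These r describe means that share libraries and the drop in class A. For Tfrc they were Hemgn (0.963), Cdkn3 (0.940) and Urod (0.937). For Fth1 they were Gpx1 (0.935), Ftl1 (0.922) and Ap2a2 (0.904), and for Ftl1 Tmem256 (0.951), H3f3a (0.938) and Gpx1 (0.936). For Slc11a2 they were Usp15 (0.933), Zbtb7a (0.890) and Zak (0.890). From cell to cell Fth1 had a Spearman's rho with detected genes of 0.53 in Flvcr-deleted (n = 30), 0.63 in wild-type (n = 42) and 0.66 in EPO-treated cells (n = 21, larger chip only). With the globin share of summed RPKM the rho was -0.62, -0.68 and -0.39. For Ftl1 these values were 0.44, 0.16 and 0.49, and -0.41, -0.19 and 0.11. Ferritin and globin values of a cell share 1 library size, so a negative rho with the globin share is partly built in.

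Class A held cells with Fth1 at 0, most of them of 1 label suffix. Fth1 was listed at 0 in 7 of 18 Flvcr-deleted, 0 of 6 wild-type and 1 of 7 EPO-treated class A cells, with medians of 602, 612 and 363 RPKM. The sum of both ferritin chains was above 0 in 12 of 18, 6 of 6 and 7 of 7 of these cells. The labels split the 18 Flvcr-deleted cells into 9 with the class suffix a and 9 with the suffix d, whose meaning they do not give. All 7 cells with Fth1 at 0 had suffix d, where the median number of detected genes was 343, against 1381 in suffix a. In suffix a cells Fth1 ran from 182 through a median of 2007 to 4157 RPKM and Ftl1 from 347 through 655 to 3577. Ftl1 was under 1 RPKM in the same numbers of Flvcr-deleted and wild-type cells and was detected in 5 of 7 EPO-treated ones. In wild-type class A Ftl1 had a mean of 9.54 ± 1.00 (SD, n = 6 cells) and Fth1 one of 9.02 ± 1.24, the reverse of their order in classes B to D. Of these 6 cells 4 had at least 3 granulocyte and monocyte markers, whose part in that order was not tested. With class A included, 0 of the 4 kept members were lower and 0 higher between Flvcr-deleted and wild-type cells, against 44.6% and 0.669% of kept genes. Between EPO-treated and wild-type cells 2 were lower (Fth1 and Ftl1) and 0 higher, against 35.2% and 0.236%, and between Flvcr-deleted and EPO-treated cells 0 were lower and 0 higher, against 6.26% and 2.44%. Without the suffix d cells Ftl1 differed between Flvcr-deleted and wild-type cells by 0.36 and Fth1 by 0.26 over the 4 letters, and Ftl1 was higher by the rule between Flvcr-deleted and EPO-treated cells (2.10).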

How the data were processed

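Per the labels' protocols, marrow cells were isolated singly on the Fluidigm C1 system, imaged for Ter119, and sequenced as Nextera XT libraries of SMART-Seq cDNA. The authors deposited 1 table of RPKM values of 34898 transcripts by cell. The alignment used TopHat2 2.0.9 and mm9, per the submitters' processing notes. For the counting tool, read totals and cell filters, nothing is given in the sources used here. A further 4 columns that belong to no sample were not used.

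Groups and letters came from the labels. The log2(RPKM + 1) scale was used, which understates changes of low genes. Genes whose mean reached 1 across all cells were kept, and a gene counted as detected from an RPKM of 1. Shares have exact binomial 95% intervals. No count model fits RPKM, and with 1 sample per group no test was made. A member counted as lower or higher at a difference of at least 1 in size with the same sign in classes B, C and D. No doublet caller was run.

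The members and lists were chosen with earlier results of these data known. Named genes were the 9 members, the called genes of the other lists (at most 6 per comparison) and the 3 kept genes most like each kept member; 1 gene that the rule named is counted but not reported here, and single cells and the values of Alas2 were singled out after they were seen. Python 3.11.15, pandas 2.3.3, numpy 2.4.6 and scipy 1.17.1 were used, and the difference script was tested on simulated data. Alternatives were other pseudocounts, scalings, class letters, weightings, rows and cells.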

Additional observations from a re-analysis of the deposited data

Results flagged for a closer look

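The 7 sets of 4 to 10 cells of 1 group and class were examined for each member above 0 in all cells of the set, which gave 16 combinations of a gene (1 of 3 members) and a set. In 2 of the 16 a value stood far from the others, where chance flags about 1 in 20. Fth1 in EPO-treated class C cell 25 was at a log2 level of 7.68 (204 RPKM), while the other 8 cells of that class lay between 10.08 and 11.82. Ftl1 in EPO-treated class D cell 14 was at 5.91 (59.1 RPKM), while the other 3 cells lay between 10.34 and 10.82.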

How the results depend on the processing

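No paired analysis was possible because the cell numbers only name cells. Of 126 alternative counts of members, which could only stay or move, 31 moved. Of 540 alternative differences 5 moved by more than the spread over cells and 0 called ones reversed. The cause was not tested. The count of lower members between Flvcr-deleted and wild-type cells, 1 as reported, was 0 with a pseudocount of 10, with classes A to D (also without suffix d) and in cells with 1000 to 2000 detected genes. It was 2 without class D, with every cell weighted alike, with 1 sum without globins and with medians, and 3 with no filter and with every cell scaled to 1 sum. Leaving out each cell in turn gave 1 to 2, as Tfrc was gained without Flvcr-deleted class D cell 12 or 15 or wild-type class D cell 40, 41 or 45.

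The count of lower members between EPO-treated and wild-type cells, 1 as reported, was 0 in cells with 1000 to 2000 detected genes and with the ratio of mean RPKM. It was 2 with a pseudocount of 0.1, with classes A to D (also without suffix d) and with summed rows, and 3 with no filter; leaving out each cell in turn gave 0 to 2. Slc11a2 was gained there without EPO-treated class C cell 9, 22 or 26 or any of 8 wild-type class C cells. Without EPO-treated cells 23 and 26 the count stayed at 1, but the gene was Slc11a2 in place of Ftl1.

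Between Flvcr-deleted and EPO-treated cells the lower count, 0 as reported, was 1 without class C, without class D, with either scaling to 1 sum and with the ratio of mean RPKM, and 0 to 1 on leaving out each cell. The higher count, 1 as reported, was 0 with classes A to D, 1 sum, the ratio of mean RPKM, medians and without EPO-treated cells 23 and 26. The medians, the single cells left out, that pair of cells and the suffix d cells were chosen after seeing the data. Read depth is unknown, which limits the 6 low-level members most.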
